A study of Mus musculus with 9 samples.

Results

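The 8 genes named as inhibitors of cyclin-dependent kinases (CDKs) were taken by their symbols from a table of 15184 genes. The table covers mouse embryonic fibroblasts (MEFs), primary cells grown out of mid-gestation embryos. The genes were Cdkn1a, Cdkn1b and Cdkn1c of the Cip/Kip family, Cdkn2a, Cdkn2b, Cdkn2c and Cdkn2d of the Ink4 family, and Cdkn3. The last is a phosphatase gene of neither family. All 8 of 8 were in the table. The rule that picks them uses their names and no measured value.

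The study asked what happens when the endogenous Hnrnpk gene, which encodes an RNA-binding protein, is activated by the CRISPR synergistic activation mediator (SAM) system. Wild-type MEFs received lentiMPHv2, which carries the activator helper proteins, and lentiSAMv2, which carries the dCas9 activator and a guide RNA, and were selected with hygromycin and blasticidin. The 3 Empty libraries carried the genotype label Empty vector, and the 3 SAM1 and 3 SAM2 libraries the label Hnrnpk_SAM. The study names lentiSAMv2 with a nontargeting guide as its control. It prints the same sequence for that guide and for the Hnrnpk guide sgHnrnpk2, so what the control guide targets cannot be read from it. The study made its Hnrnpk_SAM models with different guides, each used on its own. The labels do not tie SAM1 or SAM2 to a guide, and the library protocol names only empty vector and sgRNA2 cells. Whether SAM1 and SAM2 differ in guide, in transduced culture or in both therefore cannot be told apart. No treatment was given. Poly(A)+ RNA was sequenced in the same way in all 9 libraries, and nothing in the labels says whether the 3 libraries of a group came from separate cultures, so the p-values measure the spread between these libraries, which may be technical. Where SAM1 and SAM2 are taken as one group, that spread also holds the difference between them.

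CDK inhibitors bind CDKs or CDK-cyclin complexes and hold back the cell cycle. Ink4 proteins bind CDK4 and CDK6 and keep D-type cyclins away from them, so that the retinoblastoma proteins stay unphosphorylated and restrain E2F factors, whereas Cip/Kip proteins bind a wider set of CDK-cyclin complexes. In cultured fibroblasts Cdkn1a, a classical target of p53, and the Cdkn2a and Cdkn2b locus are known as brakes that rise as cells enter senescence, while Cdkn3 encodes a phosphatase of CDKs whose mRNA is known to accumulate in dividing cells.

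The upstream windows below show the letters next to the starts of the 4 genes with the largest changes in the 6 Hnrnpk_SAM libraries as one group, Cdkn2a, Cdkn2b, Cdkn2d and Cdkn3, and of Cdkn1a, for its known control by p53. They are the 250 bases before a transcript start in RefSeq's annotation of GRCm38.p6, a build older than the GRCm39 build of the count table, and were read 5′ to 3′ on the gene's strand. RefSeq entries were matched by symbol for 7 of the 8 genes. Capitals mark matches, on either strand, to 4 motifs given in letters, the spacing of 2 p53 half-site cores (CATGNNNNNNCATG), the cell cycle genes homology region or CHR (TTTGAA), the CCAAT box (CCAAT) and an E2F-like element (TTTNNCGC). None of the matches shown overlap each other.
Cdkn1a, chr17:29090729-29090978, plus strand: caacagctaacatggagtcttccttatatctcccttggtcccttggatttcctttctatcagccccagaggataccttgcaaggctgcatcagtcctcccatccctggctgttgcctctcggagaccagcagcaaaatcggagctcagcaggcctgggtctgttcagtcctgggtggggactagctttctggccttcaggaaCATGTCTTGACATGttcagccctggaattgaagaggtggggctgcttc
Cdkn2a, chr4:89294620-89294869, minus strand: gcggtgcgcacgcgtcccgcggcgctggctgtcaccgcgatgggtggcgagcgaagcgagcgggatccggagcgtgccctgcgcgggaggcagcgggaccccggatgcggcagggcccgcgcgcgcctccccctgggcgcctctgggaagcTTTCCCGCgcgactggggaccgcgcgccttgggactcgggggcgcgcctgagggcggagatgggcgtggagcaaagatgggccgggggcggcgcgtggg
Cdkn2b, chr4:89311033-89311282, minus strand: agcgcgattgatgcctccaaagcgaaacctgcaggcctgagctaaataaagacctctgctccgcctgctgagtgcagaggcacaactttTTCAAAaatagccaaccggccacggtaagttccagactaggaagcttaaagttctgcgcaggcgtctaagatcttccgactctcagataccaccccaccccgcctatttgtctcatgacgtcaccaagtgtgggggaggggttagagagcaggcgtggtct
Cdkn2d, chr9:21291210-21291459, minus strand: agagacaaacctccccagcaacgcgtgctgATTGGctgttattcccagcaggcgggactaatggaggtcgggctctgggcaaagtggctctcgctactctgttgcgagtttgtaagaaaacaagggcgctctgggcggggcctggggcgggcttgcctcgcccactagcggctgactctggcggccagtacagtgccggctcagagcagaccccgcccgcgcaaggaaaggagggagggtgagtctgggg
Cdkn3, chr14:46760291-46760540, plus strand: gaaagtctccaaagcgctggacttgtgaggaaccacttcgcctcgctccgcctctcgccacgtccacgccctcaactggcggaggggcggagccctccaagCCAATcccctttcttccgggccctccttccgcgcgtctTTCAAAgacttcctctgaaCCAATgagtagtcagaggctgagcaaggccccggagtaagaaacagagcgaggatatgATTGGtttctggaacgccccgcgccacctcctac

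The Cdkn1a window, before the upstream of its 2 annotated starts, held the pair of p53 half-site cores, which begins 48 bases before the start. That spacing occurred in 0.464% of 32536 windows of this length. The Cdkn3 window held 1 CHR, beginning 111 bases before the start, and 3 CCAAT boxes, beginning 149, 92 and 34 bases before it. A CHR occurred in 15.8% and a CCAAT box in 33.8% of all windows, so that neither is rare by itself. The Cdkn2d window held 1 CCAAT box, the Cdkn2b window 1 CHR, and the Cdkn2a window, which lies before the upstream start that serves the Arf transcript, 1 E2F-like element, found in 4.31% of windows. The downstream window of Cdkn2a also held 1 E2F-like element, beginning 244 bases before its start, and the Cdkn1b window held 2 CCAAT boxes, beginning 161 and 35 bases before its start. The 2 windows of Cdkn2c and the downstream window of Cdkn1a held none of the 4 motifs. A match of letters is a description and not a bound site.

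All values below are normalized counts, the authors' read counts per gene scaled to a common library size, and a change is the difference of mean log2(normalized count + 1), which slightly understates the change of low genes. Whole reads could be recovered from the values of 8 of the 9 libraries, and these held 41759636 to 49026626 reads in listed genes, and the fewest reads behind any value of the 8 genes in these libraries were 146, for Cdkn3 in an Empty library. In these counts Hnrnpk itself, the gene the system was aimed at, was not higher in both SAM groups. By other measures, qRT-PCR and Western blot, the study reports Hnrnpk overexpression in its Hnrnpk_SAM MEFs. Here Hnrnpk had 25058 to 26164 normalized counts in Empty. Every SAM1 library lay below that range, with 23619 to 24102, and every SAM2 library above it, with 26221 to 26859. The groups are therefore named by their labels throughout, and every direction below is a difference between libraries so labelled. All 10 fibroblast markers were present, with summed normalized counts of 1036568 to 1131540 in Empty, 864702 to 926188 in SAM1 and 1163655 to 1202213 in SAM2. Of the endothelial markers 4 of 4 were listed, and their sum was 301 to 357 in Empty, 4613 to 4988 in SAM1 and 638 to 689 in SAM2. That difference lay mostly in Kdr, with means of 210.7 in Empty, 4693 in SAM1 and 535.7 in SAM2. In the same order Pecam1 had 12.9, 29.45 and 11.99, Cdh5 77.58, 64.67 and 51.21, and Tek 35.56, 29.05 and 67.1. Of the immune markers 2 of 6 were listed, Cd68 and Lyz2, with sums of 393 to 505 in Empty, 673 to 734 in SAM1 and 585 to 621 in SAM2, and the defining markers Ptprc and Adgre1 were not in the table. Of the epithelial markers 2 of 6 were listed, with sums of 42 to 50 in Empty, 110 to 113 in SAM1 and 43 to 52 in SAM2, without Epcam, Krt5, Krt14 and Krt18. Of the neural markers 2 of 4 were listed (1121 to 1374, 1271 to 1290 and 1099 to 1158), without Sox2 and Elavl4, and of the muscle markers 1 of 4, Des (44 to 83, 91 to 111 and 223 to 245), without Myod1, Myog and Ckm. These sums hide opposite moves. Means in Empty, SAM1 and SAM2 were 1011, 483.2 and 567.7 for the neural marker Map2 and 268.5, 796.5 and 568.6 for Tubb3. They were 78.2, 180.7 and 45.3 for Lyz2. Of the fibroblast markers, Pdgfra had 9710, 6403 and 5534 and Pdgfrb 6569, 12580 and 9513. What part these differences play in the results was not tested, and in bulk RNA fewer cells with a transcript and less transcript per cell cannot be told apart.

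In the Hnrnpk_SAM libraries the inhibitor genes did not move as a block. Cdkn1a, Cdkn2a, Cdkn2b and Cdkn2c were lower than in Empty in both SAM1 and SAM2, Cdkn2d and Cdkn3 were higher in both, and Cdkn1b and Cdkn1c differed from Empty in only one of them. Taking the 6 SAM1 and SAM2 libraries as one group against the 3 Empty libraries, as the study did, 6 of the 8 genes passed an adjusted p of 0.05 in limma, 2 higher and 4 lower. Over all 15184 genes 53.9% passed, 26.8% higher and 27.0% lower. For the same 6 genes all 6 SAM libraries lay on one side of the 3 Empty libraries, which was so for 53.1% of all genes. Calls were thus common across the transcriptome, and the count of 6 in 8 is read against that background. The median log2 fold change was -0.27 over the 8 genes and 0.01 over all genes, and the median size of the change, whatever its sign, was 0.46 and 0.33.

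**Figure D1:**
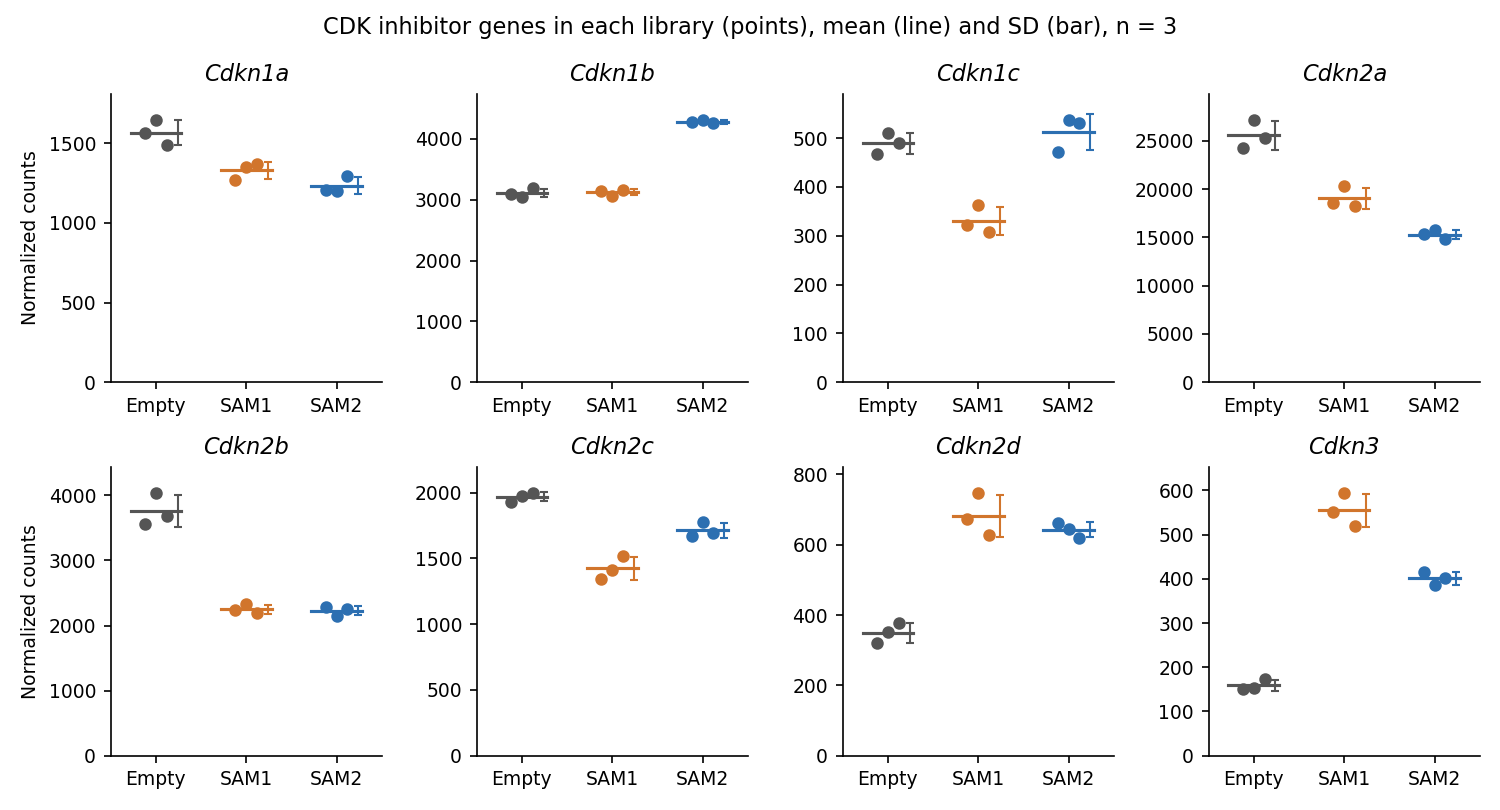
Normalized counts (y axis, from 0, a scale of its own in each panel) of the 8 genes in each library of the Empty, SAM1 and SAM2 groups (x axis), with points for libraries, lines for group means and bars for the SD of 3 libraries. Cdkn2d and Cdkn3 sit higher in both SAM groups than in Empty, Cdkn1a, Cdkn2a, Cdkn2b and Cdkn2c sit lower in both, Cdkn1b is high in SAM2 alone and Cdkn1c is low in SAM1 alone.

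Cdkn1a, on chromosome 17 (GRCm39, chr17:29309936-29319701, plus strand), encodes p21Cip1, which inhibits CDK2 complexes and binds PCNA. It had 1563, 1647 and 1491 normalized counts in the 3 Empty libraries, 1267, 1353 and 1366 in SAM1 and 1209, 1197 and 1294 in SAM2. Every Hnrnpk_SAM library was below every Empty library, and SAM1 and SAM2 overlapped. The log2 fold change was -0.29 ± 0.06 (SE) for the 6 SAM libraries (adjusted p = 0.00209, limma), -0.24 ± 0.05 in SAM1 (adjusted p = 0.000653) and -0.34 ± 0.05 in SAM2 (adjusted p = 2.94e-05). SAM2 and SAM1 differed by -0.11 (95% confidence interval -0.2135 to -0.0015 before adjustment, adjusted p = 0.0741), which missed the threshold, though it passed it in 3 alternatives, with quantile normalization (-0.14, adjusted p = 0.0317), without SAM1 replicate 1 (-0.14, adjusted p = 0.0407) and without SAM2 replicate 3 (-0.14, adjusted p = 0.04). The genes Gm64878 and Dino overlap Cdkn1a on the opposite strand in the annotation, and neither is in the table. The study names a directional library kit, so the reads carry their strand, but the sources used here do not say whether counting used it. If it did not, reads of such antisense genes cannot be told apart from those of Cdkn1a. The same holds for Gm44238 over Cdkn1b, Gm44732 over Cdkn1c, Gm68465 and Gm57073 over Cdkn2c and Gm69914 over Cdkn2d.

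Cdkn1b, on chromosome 6 (chr6:134897364-134902476, plus strand), encodes p27Kip1, an inhibitor of CDK2 complexes that is largely controlled through its degradation. It had 3095, 3050.4 and 3188 normalized counts in Empty, 3146, 3064 and 3153 in SAM1 and 4280.4, 4316 and 4255 in SAM2. The SAM2 libraries stood above all others and close together, with a coefficient of variation of 0.716%, and SAM1 lay within the range of Empty. In SAM2 the level was 1.38-fold that of Empty (log2 fold change 0.46, adjusted p = 1.33e-08, limma). In SAM1 the log2 fold change was 0.0049 (95% confidence interval -0.06 to 0.07, adjusted p = 0.889). The difference between SAM2 and SAM1 passed its own test (0.46, adjusted p = 3.08e-08). With the 6 libraries as one group the change of 0.23 ± 0.13 (SE) missed the threshold (adjusted p = 0.166).

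Cdkn1c, on chromosome 7 (chr7:143012069-143014806, minus strand), encodes p57Kip2 and is expressed from the maternal allele of an imprinted domain. It had 468, 512 and 489 normalized counts in Empty, 322, 363 and 308 in SAM1 and 471, 538 and 532 in SAM2. Here SAM1 stood apart, below every Empty and SAM2 library, and SAM2 overlapped Empty. The log2 fold change was -0.57 ± 0.07 (SE) in SAM1 (adjusted p = 1.34e-05, limma) and 0.07 in SAM2 (95% confidence interval -0.09 to 0.23, adjusted p = 0.44). SAM2 was higher than SAM1 by 0.63 (adjusted p = 9.25e-06). As a group the 6 SAM libraries did not pass (-0.25 ± 0.19, adjusted p = 0.304). Its annotated overlap with 4933417O13Rik is on the same strand, so reads shared by these genes could not be assigned with certainty.

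Among the Ink4 genes, Cdkn2a on chromosome 4 (chr4:89192708-89212890, minus strand) encodes both p16Ink4a, the CDK4 and CDK6 inhibitor, and p19Arf, which protects p53 from Mdm2, from separate first exons. A count per gene cannot separate them. It had 24253, 27194 and 25255 normalized counts in Empty, 18519, 20337 and 18286 in SAM1 and 15326, 15734 and 14827 in SAM2. The 3 groups did not overlap, in the order Empty, SAM1, SAM2 from high to low. The log2 fold change was -0.58 ± 0.10 (SE) for the 6 libraries (adjusted p = 0.00102, limma), -0.42 ± 0.05 in SAM1 (adjusted p = 2.36e-06) and -0.74 in SAM2 (adjusted p = 1.12e-08), where the level was 1.67-fold lower. SAM2 was below SAM1 by -0.32 (adjusted p = 7.14e-05). The size in SAM1 depended on the scaling, since quantile normalization gave -0.22 (adjusted p = 0.00141), with the call and direction kept.

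Cdkn2b, the neighbour of Cdkn2a at chr4:89223204-89229276 on the same strand, encodes p15Ink4b, an inhibitor of CDK4 and CDK6 known to respond to TGF-beta. It had 3565, 4034 and 3687 normalized counts in Empty, 2231, 2330.5 and 2197 in SAM1 and 2281, 2153 and 2252 in SAM2. The SAM1 and SAM2 libraries were interleaved and all lay well below Empty. The log2 fold change was -0.75 ± 0.05 (SE) for the 6 libraries (adjusted p = 1.4e-06, limma), -0.74 in SAM1 (adjusted p = 6.71e-09) and -0.75 in SAM2 (adjusted p = 7.21e-09). SAM2 and SAM1 differed by -0.02, with a 95% confidence interval of -0.11 to 0.08 (adjusted p = 0.782). The antisense gene Gm12610, which overlaps Cdkn2b on the opposite strand, had 5.12, 3.15 and 5.84 normalized counts in Empty, 16.1, 13.8 and 15.6 in SAM1 and 17.8, 13.0 and 14.8 in SAM2. With every Empty library under 10, it passed the filter of the table through the Hnrnpk_SAM libraries and so had to be higher in them, and its values are a description. It was named after they were seen.

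Cdkn2c, farther along chromosome 4 (chr4:109517957-109524386, minus strand), encodes p18Ink4c. It had 1930.4, 1977 and 1995 normalized counts in Empty, 1345, 1409 and 1518 in SAM1 and 1672, 1775 and 1691 in SAM2. The groups did not overlap, and SAM2 lay between Empty and SAM1. The log2 fold change was -0.33 ± 0.09 (SE) for the 6 libraries (adjusted p = 0.01, limma), -0.47 ± 0.05 in SAM1 (adjusted p = 6.5e-07) and -0.20 in SAM2 (adjusted p = 0.00145). SAM2 exceeded SAM1 by 0.27 (adjusted p = 0.000217), so the order of SAM1 and SAM2 was the reverse of that for Cdkn2a.

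Cdkn2d, on chromosome 9 (chr9:21199700-21202727, minus strand), encodes p19Ink4d, an Ink4 protein whose level is known to vary through the cell cycle. It had 319, 351 and 376 normalized counts in Empty, 672, 747 and 629 in SAM1 and 663, 645 and 619.8 in SAM2. All 6 Hnrnpk_SAM libraries lay above all Empty libraries, and SAM1 and SAM2 overlapped. The log2 fold change was 0.92 ± 0.08 (SE) for the 6 libraries (adjusted p = 8.22e-06, limma), 0.97 ± 0.07 in SAM1 (adjusted p = 5.35e-08) and 0.88 in SAM2 (adjusted p = 1.69e-07). Its difference between SAM2 and SAM1 was -0.08 (95% confidence interval -0.24 to 0.08, adjusted p = 0.341). It was the 1 Ink4 gene of 4 that rose.

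Cdkn3, on chromosome 14 (chr14:46997904-47015505, plus strand), encodes the dual-specificity phosphatase that removes the activating phosphate of CDKs such as CDK2. It had 151, 153 and 173 normalized counts in Empty, 551, 593 and 519 in SAM1 and 415, 387 and 402 in SAM2. The groups did not overlap, with SAM1 highest. Levels were 3.47-fold those of Empty in SAM1 (log2 fold change 1.79 ± 0.07, SE, adjusted p = 9.4e-11, limma) and 2.51-fold in SAM2 (1.33, adjusted p = 2.76e-09), and 1.56 ± 0.15 (SE) on the log2 scale for the 6 libraries (adjusted p = 2.09e-05). SAM2 was below SAM1 by -0.46 (adjusted p = 0.000116). The end of Cdkn3 overlaps Cnih1 on the opposite strand, and Cnih1 had 6548 to 7277 normalized counts in Empty, 8695 to 9257 in SAM1 and 8945 to 9346 in SAM2, with changes of 0.40 and 0.41. Cdkn3 changed by more than this neighbour in both, but reads of the shared stretch cannot be assigned without knowing whether strand was used.

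**Figure D2:**
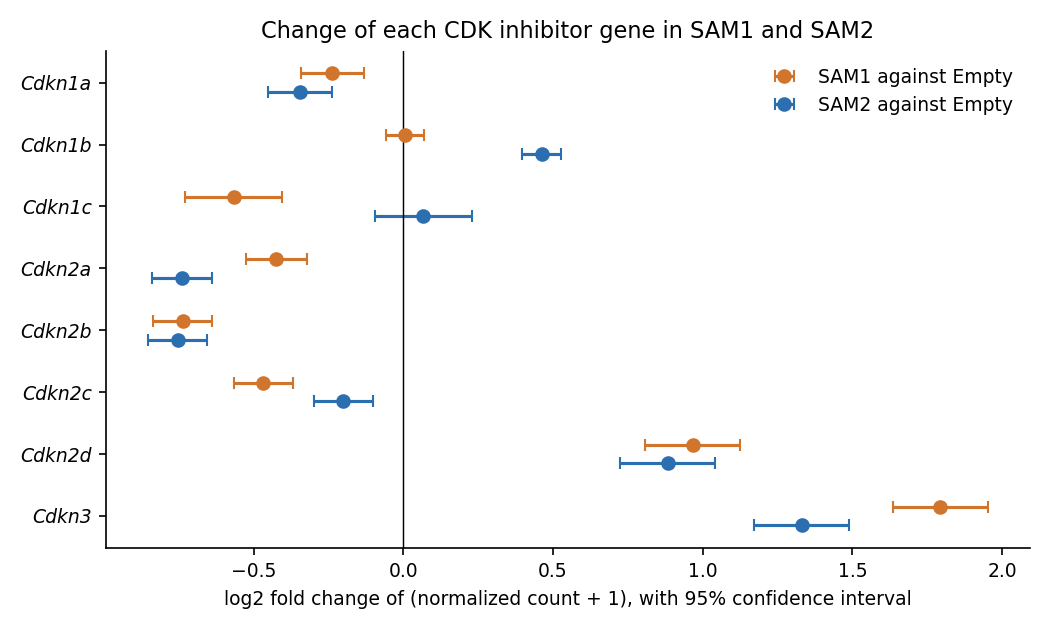
Log2 fold change of normalized count + 1 (x axis) of the 8 genes (y axis) in SAM1 and in SAM2 against the same 3 Empty libraries, with points for the estimates and bars for their 95% confidence intervals from limma. The intervals of Cdkn1b in SAM1 and of Cdkn1c in SAM2 span 0, the other 14 do not, and Cdkn3 lies farthest to the right at 1.79 and 1.33.

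Set side by side, SAM1 differed from Empty in 7 of the 8 genes, 2 higher and 5 lower, beside 74.3% of all genes, 37.3% higher and 36.9% lower. SAM2 differed in 7, 3 higher and 4 lower, beside 70.5% of all genes, 35.2% higher and 35.3% lower. Both shares lie near or modestly above these backgrounds, and since both comparisons use the same Empty libraries their likeness is not independent. SAM2 differed from SAM1, a comparison without the Empty libraries, in 5 of the 8 genes, 3 higher (Cdkn1b, Cdkn1c and Cdkn2c) and 2 lower (Cdkn2a and Cdkn3), beside 60.3% of all genes, 31.1% higher and 29.2% lower. For the 8 genes the median size of the SAM2 to SAM1 difference was 0.29 on the log2 scale, and over all genes it was 0.23. Cdkn1b and Cdkn1c, each called in one of SAM1 and SAM2, were not called when both were treated as one Hnrnpk_SAM group. In that fit the difference between SAM1 and SAM2 counts as spread. Fitting the 3 groups and averaging SAM1 and SAM2 leaves it out of the spread. The estimates were then the same, 0.23 and -0.25, with adjusted p = 2.32e-06 and 0.00344 (limma).

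Levels of different genes were compared per kb of the annotated canonical transcript. Cdkn2a was the most abundant in every group, at 30010.0 ± 1760 (SD, n = 3) normalized counts per kb in Empty, 22360.0 ± 1320 in SAM1 and 17950.0 ± 533 in SAM2. It made up 87.6% ± 0.291 (SD) of the summed level of the 8 genes in Empty, 85.2% ± 0.418 in SAM1 and 81.4% ± 0.522 in SAM2, and these shares did not overlap. In Empty the order below it was Cdkn2b at 1382 ± 89.3, Cdkn1a at 814.8 ± 40.7, Cdkn2c at 729.8 ± 12.4 and Cdkn1b at 683.4 ± 15.4. Cdkn1c at 253.6 ± 11.4 and Cdkn2d at 224.7 ± 18.4 overlapped, and Cdkn3 was lowest at 157.5 ± 11.8. In SAM1 the order of the low genes was turned, with Cdkn3 at 548.5 overlapping Cdkn2c at 528.2, Cdkn2d at 439.7 and Cdkn1c lowest at 171.5. Cdkn1a at 691.0 and Cdkn1b at 685.7 overlapped there. In SAM2 Cdkn1b rose to second place, at 941.1 ± 6.74, above Cdkn2b at 818.7, and Cdkn1a at 641.4 overlapped Cdkn2c at 635.2. Cdkn2d at 414.0 overlapped Cdkn3 at 396.9, and Cdkn1c had 266.0. Without Cdkn2a the summed level of the other 7 genes was 4246 ± 134 (SD) in Empty, 3892 ± 105 in SAM1 and 4113 ± 19.2 in SAM2, and Empty and SAM2 overlapped. With the length of all annotated exons instead, Cdkn2a stayed the most abundant, at 87.6%, 86.2% and 81.8% of the sum, but the order of the lower genes changed and Cdkn3 was lowest in every group.

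**Figure D3:**
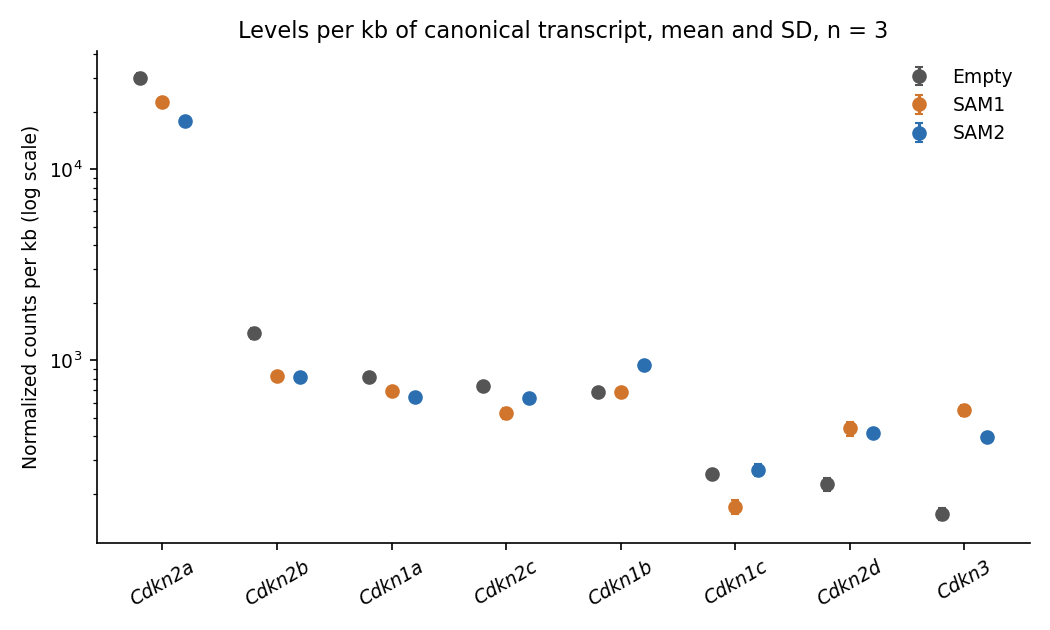
Normalized counts per kb of canonical transcript (y axis, log scale) of the 8 genes, ordered by their mean in Empty (x axis), with points for the means of 3 libraries and bars for their SD, often smaller than the point. Cdkn2a lies far above the other genes in all 3 groups, and Cdkn3 climbs from the lowest place in Empty to above Cdkn2d in SAM1.

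The genes on either side of each inhibitor gene showed how far a change was shared with its chromosome region. Cdkn3 lies on chromosome 14, where the median change of the 512 other listed genes, for the 6 SAM libraries against Empty, was 0.55 on the log2 scale, the highest of 20 chromosomes, followed by chromosome 15 at 0.26. Of the 18 other genes within 1 Mb of Cdkn3, with a median of 0.52 in SAM1 and 0.62 in SAM2, 2 had a larger change than Cdkn3 in SAM1 and 3 in SAM2. Cdkn2d rose in a region whose 62 genes had medians of -0.18 in SAM1 and -0.09 in SAM2, and it lay above 57 and 56 of them. Cdkn1a fell although its 35 neighbours had medians of 0.24 and 0.23, and 29 of them were above it in SAM1 and 34 in SAM2. The 18 neighbours of Cdkn1b had medians of 0.26 in SAM1 and 0.11 in SAM2, and 13 and 5 of them were above it. The chromosome medians were 0.15 for chromosome 17, 0.18 for chromosome 6, -0.24 for chromosome 7, -0.15 for chromosome 4 and -0.14 for chromosome 9. How much of any gene's change follows from its chromosome was not tested.

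Cdkn2a and Cdkn2b each had 10 other genes within 1 Mb, which were the same genes apart from each other, with medians of 0.02 in SAM1 and -0.23 in SAM2. All 10 lay above Cdkn2b in SAM1 and 8 in SAM2, and 8 and 7 lay above Cdkn2a. Mtap, the nearest named protein-coding gene past the pair, which encodes an enzyme of methionine salvage, changed by 0.04 in SAM1 (adjusted p = 0.229, limma) and -0.10 in SAM2 (adjusted p = 0.00488). The 14 neighbours of Cdkn2c had medians of -0.24 in SAM1 and -0.22 in SAM2 and ranged from -2.47 to 2.06 in SAM1, and 9 of them were above it in SAM1 and 7 in SAM2. Cdkn1c had a regional median of -0.34 in SAM1 and -0.22 in SAM2, of 24 genes, and so its fall in SAM1 stood in a region that was also lower, whereas in SAM2 19 of the 24 were below it.

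Noncoding neighbours were listed beside 2 of the Cip/Kip genes. Lockd, a noncoding gene 2.4 kb from Cdkn1b, was higher in both SAM1 (1.29, adjusted p = 1.48e-07, limma) and SAM2 (1.03, adjusted p = 1.69e-06), whereas Cdkn1b rose in SAM2 alone. Trp53cor1, the long noncoding RNA also called lincRNA-p21, lies 11.7 kb from Cdkn1a and was lower in SAM1 (-0.85, adjusted p = 0.000203), with 0.07 in SAM2 (adjusted p = 0.703). Its difference between SAM2 and SAM1 was 0.91 (adjusted p = 0.000173). These neighbours were named for their place, after the values had been seen.

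**Figure D4:**
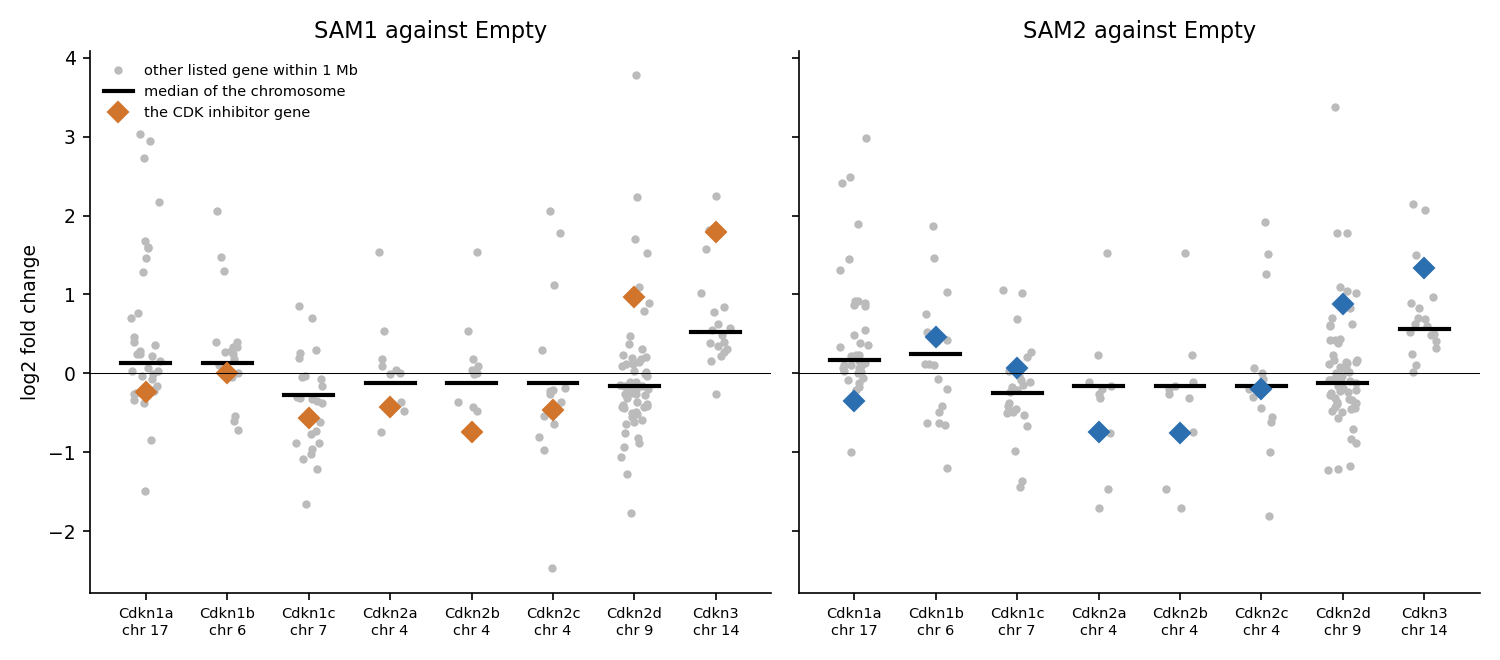
Log2 fold change (y axis) in SAM1 (left) and SAM2 (right) against Empty of each inhibitor gene (diamond), of the other listed genes within 1 Mb of it (grey points) and the median of its chromosome (black bar), for the 8 genes (x axis). Cdkn2d and Cdkn3 lie above their chromosome medians, Cdkn1a and Cdkn2b below theirs, and the bar of chromosome 14 is the highest.

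The other genes of the pathway were counted over whole lists, and the genes named from each list are mainly those of smallest p. All list counts for the 6 SAM libraries against Empty stand beside 26.8% of all genes higher and 27.0% lower. Of 12 CDK and cyclin genes 8 were higher, 2 lower and 2 not called in the 6 SAM libraries against Empty, with a median of 0.29. The smallest p-values were those of the S phase and mitotic cyclins and their kinase. Ccna2 had 1825 to 1976 normalized counts in Empty and 5027 to 5244 in the 6 SAM libraries (1.43, adjusted p = 8.1e-09, limma), Ccnb1 rose by 1.41, Ccnb2 by 1.12 and Cdk1, the mitotic kinase, by 1.02. Of the kinases that Ink4 proteins bind, Cdk6 was lower, with 10790.0 to 11610.0 normalized counts in Empty, 2143 to 2325 in SAM1 and 3858 to 4100.0 in SAM2 (-2.31 and -1.48, and -1.89 for the 6 libraries with adjusted p = 0.000128, limma). Cdk4 was at -0.03 (adjusted p = 0.675). Of the D-type cyclins, which activate both kinases, Ccnd1 was at -0.49 (adjusted p = 0.0168), Ccnd3 at 0.32 (adjusted p = 0.0124) and Ccnd2 at 0.07 (adjusted p = 0.832). Ccnd2 was lower in SAM1 (-0.39, adjusted p = 1.38e-07) and higher in SAM2 (0.54, adjusted p = 7.28e-09), and it and Ccnd3 were named after their values were seen.

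Of 10 pocket protein and E2F genes 6 were higher, 2 lower and 2 not called. E2f2 rose by 1.01, E2f7 by 0.82, E2f8 by 1.28 and Rbl1, which encodes the pocket protein p107, by 0.45. Rb1 itself was at 0.55 (adjusted p = 0.00414, limma). The 2 lower genes were E2f5 at -0.30 and E2f4 at -0.21. Of 10 genes for the ubiquitin ligases that degrade Cip/Kip proteins and for their partners, 6 were higher, 1 lower and 3 not called. Skp2, which encodes the receptor for p27Kip1, had 1537 to 1647 normalized counts in Empty and 2239 to 2577 in the 6 SAM libraries (0.62, adjusted p = 7.75e-06). Its cofactor Cks1b rose by 0.40, Pcna, which does not encode a ligase subunit, by 0.64 and Cul4b by 0.31, and Ddb1 was the lower one at -0.25.

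Genes for known activators and repressors of the inhibitor genes were called in both directions, as were all genes, 26.8% of them higher and 27.0% lower. Of 15 activators 2 were higher, 6 lower and 7 not called. Trp53, which encodes p53, had 1079, 1114 and 1060 normalized counts in Empty, 2505, 2462 and 2452 in SAM1 and 2357, 2404 and 2332 in SAM2, so every SAM library was above every Empty library (1.16, adjusted p = 3.61e-08, limma). Klf6 was at -0.84, Klf4 at -0.80 and Smad4 at -0.15, all called lower. Of 13 listed repressors 4 were higher, 3 lower and 6 not called. Polycomb genes were called in both directions. Ezh2 and Suz12, whose complex is known to silence the Cdkn2a locus, rose by 0.68 and 0.44, and Bmi1 rose by 0.43. The 3 lower repressors were all Polycomb genes. Eed, of the same complex as Ezh2, was at -0.25, Ring1 at -0.29 and Rnf2 at -0.44.

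Targets of p53 other than Cdkn1a did not share a direction. Of 20 of them 3 were higher, 6 lower and 11 not called for the 6 libraries. In SAM1 the count was 3 higher and 12 lower, with a median of -0.44, beside 37.3% of all genes higher and 36.9% lower. In SAM2 it was 8 higher and 7 lower, with a median of 0.00, beside 35.2% and 35.3%. Among those 8 was Gdf15, with 10.88, 13.91 and 11.13 normalized counts in SAM2, 4.75 to 6.91 in SAM1 and 2.05 to 9.35 in Empty. Gdf15 passed the filter of the table through the SAM2 libraries and so had to be higher in them, and its call is a description. Perp, for a membrane protein of p53-dependent apoptosis, was the lowest, with 4272 to 4727 normalized counts in Empty, 522 to 568 in SAM1 and 397 to 427 in SAM2 (-3.24, adjusted p = 7.3e-08, limma). Tnfrsf10b, a death receptor gene, rose by 0.80, Ccng1 was at -0.48 and Aen at -0.40. Mdm2, whose protein degrades p53, was at -0.04 (adjusted p = 0.35). Of 8 listed genes of the imprinted domain of Cdkn1c, 1 was higher, 3 lower and 4 not called. Phlda2 was at 0.96, Nap1l4 at -0.36, Tssc4 at -0.34 and Cd81 at -0.81, whereas the noncoding RNA of the domain, Kcnq1ot1, had 141 to 227 normalized counts in Empty, 187 to 231 in SAM1 and 152 to 175 in SAM2 (0.02, adjusted p = 0.931).

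**Figure D5:**
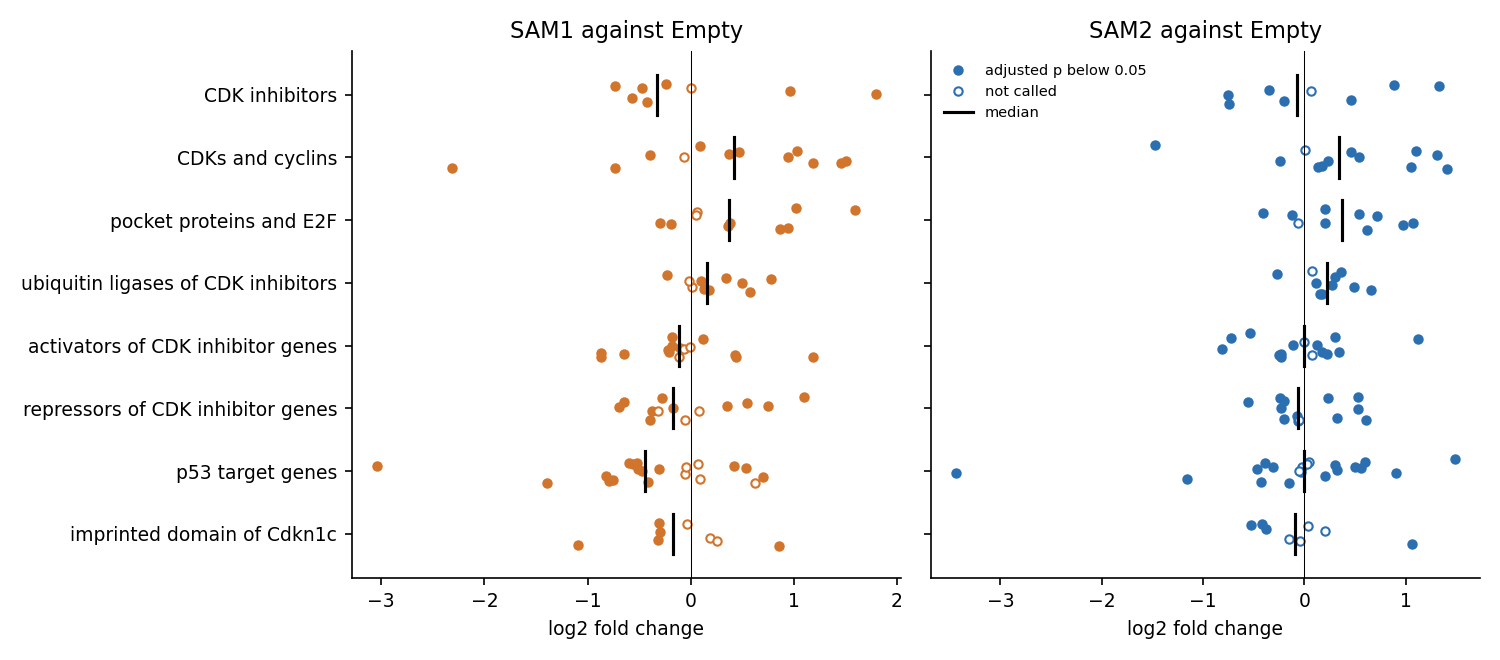
Log2 fold change (x axis) of each listed gene in SAM1 (left) and SAM2 (right) against Empty, by list (y axis), with filled points for genes called by limma, open points for the others and black bars for list medians. The CDK and cyclin list and the pocket protein and E2F list have medians above 0 in both, while the median of the CDK inhibitors is at -0.33 and -0.07.

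The genes nearest to each inhibitor gene by Pearson's r across the 9 libraries were named as a description. In these libraries 3 groups set most of the pattern, and libraries of 1 group may share their source. Cdkn3 was most like Exo1 (r = 0.998) and Crabp2 (0.997), and Cdkn2d most like Spc24 and Rnaseh2b (0.997 and 0.996). Exo1 encodes a DNA exonuclease, Spc24 a kinetochore protein and Rnaseh2b a subunit of ribonuclease H2. Cdkn2b was most like Rexo2 and Tsc22d3 (0.998 and 0.997), Cdkn2a like Nab2 and Ykt6 (0.998 and 0.997) and Cdkn2c like 2310057M21Rik and Ankra2 (0.992 and 0.987). Among the Cip/Kip genes Cdkn1a was closest to Sirt5 and Ubald1 (0.978 and 0.975), Cdkn1b to Arl8b and Kat2b (0.998 and 0.996) and Cdkn1c to Mpst and Abraxas1 (0.990 and 0.988). Such values are common here, and 1110 genes exceeded 0.95 with Cdkn2b and 1087 with Cdkn3, compared with 61 for Cdkn1a and 141 for Cdkn1c. Between inhibitor genes the highest r was that of Cdkn2d with Cdkn3, 0.978, and the lowest that of Cdkn2b with Cdkn2d, -0.954. Cdkn1b and Cdkn1c had an r of 0.537 with each other, and Cdkn1a and Cdkn2a one of 0.928.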

How the data were processed

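RNA of 9 MEF libraries, 3 each of Empty, SAM1 and SAM2, was sequenced as paired reads of 43 bases. The authors checked reads with FastQC 0.11.0, aligned them with TopHat2, Bowtie and SAMtools to GRCm39 (3 mismatches and 20 multihits allowed), counted Gencode vM29 genes with HTSeq, scaled the counts with DESeq2 and kept genes above 10 in at least 30% of libraries. The deposited signal is this normalized count per gene, 1 column per library, all mapped by label. Reads that map to many places could be lost or shared, which bears on overlapping genes.

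Values were compared with limma 3.58.1 (trend, two-sided) in R 4.3.3 on log2(normalized count + 1), with Benjamini-Hochberg adjustment over all 15184 genes and a threshold of 0.05. One fit held SAM libraries against Empty, and the other held 3 groups. The design foresaw a count test only if the values were raw counts. Whole reads came back from 100% of the values (tolerance 0.1) in 8 libraries, all but SAM2 replicate 1, and edgeR 4.0.16 and DESeq2 1.42.0 were run on them as alternatives, beside other pseudocounts (0.5 and 5), a filter, quantile normalization, a replicate block, libraries left out and a neighbourhood of 5 Mb in place of 1. Scripts were tested on simulated data. Gene positions come from Gencode vM39 on GRCm39, which matched 14791 symbols once. Levels were divided by exon length.

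All 8 inhibitor genes were named, with the 4 genes of smallest p per pathway list, 8 further genes fixed by name, and the 2 genes of highest r. Rb1, E2f4, E2f5, Ring1 and Rnf2 fell outside these rules and were named after their values were seen. Members and lists were chosen with earlier results of these data known.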

Additional observations from a re-analysis of the deposited data

Results flagged for a closer look

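For 5 of the 8 inhibitor genes the difference between SAM2 and SAM1 passed its own test in the fit of 3 groups, beside 60.3% of all genes, so that a share of this size is common across the transcriptome. The log2 difference, SAM2 minus SAM1, was 0.4567 for Cdkn1b, 0.6331 for Cdkn1c, -0.3153 for Cdkn2a, 0.2674 for Cdkn2c and -0.4641 for Cdkn3.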

How the results depend on the processing

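Of 520 values of the 8 genes under an alternative, 509 kept their direction and their side of the threshold, 5 passed it where the reported fit did not, 0 lost it and 6 changed sign, all 6 of them differences near 0 that were not called. These were Cdkn1c in SAM2 against Empty under quantile normalization (-0.0189), Cdkn1b in SAM1 against Empty without Empty replicate 2 (-0.0092), without SAM1 replicate 1 (-0.0009) and without SAM1 replicate 3 (-0.0025), where leaving out 1 library gave up to 0.0227, and Cdkn2b in SAM2 against SAM1, where it gave down to -0.0336, without SAM1 replicate 2 (0.0088) and without SAM2 replicate 2 (0.0088). With 1 library left out, 6 to 6 genes were called for the 6 SAM libraries, 7 to 7 for SAM1, 7 to 7 for SAM2 and 5 to 6 for SAM2 against SAM1. Quantile normalization, edgeR and DESeq2 each called 6 genes for the 6 SAM libraries, 7 for SAM1 and 7 for SAM2, and for SAM2 against SAM1 they called 6, 5 and 5. The 5 that newly passed are those given in the report for Cdkn1a (3), Cdkn1b and Cdkn1c. For the 6 SAM libraries against Empty, taking 5 Mb in place of 1 Mb moved the neighbourhood median from 0.2387 to 0.1669 for Cdkn1a, from -0.2698 to -0.3622 for Cdkn1c, from -0.1164 to -0.2904 for Cdkn2a and Cdkn2b and from 0.5826 to 0.6433 for Cdkn3, over more genes. In SAM1 that of Cdkn2a and Cdkn2b went from 0.0204 to -0.0097.

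The labels give the groups the same replicate numbers. Same-numbered libraries deviated together with r of 0.00237 to 0.117 over 9 pairs, with a mean of 0.053. Pairs with different numbers had r of -0.122 to 0.046 over 18 pairs, with a mean of -0.0265. The values of r were thus small but slightly higher for equal numbers. The reported fits took no pairing, and a replicate block was an alternative. With the replicate block the same counts of inhibitor genes were called, 6, 7, 7 and 5, and 7343, 11631, 11095 and 9812 of all genes. Depth limits Gm12610, at 3.15 to 17.8 normalized counts, more than the 8 genes, for which 3 libraries per group, the unknown use of strand and the 2 products of Cdkn2a set the limits. Without 1 library, 6761 to 8133 of all genes were called for the 6 SAM libraries.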
